A study of Rattus norvegicus with 21 samples.

Results

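Synaptic adhesion and scaffold genes were followed across 21 single hippocampal neurons. The set holds 9 genes of the 16245 gene symbols in the table, each found by its symbol and each present on 1 row: the neurexins Nrxn2 and Nrxn3, the neuroligins Nlgn1, Nlgn2 and Nlgn3, the leucine-rich repeat proteins Lrrtm2 and Slitrk4, and the scaffolds Dlg2 and Dlg4. The neurons came from Wistar rat embryos at embryonic day 18 that carried a Venus transgene for the vesicular GABA transporter, VGAT. They were kept for 17 days in vitro, recorded with a patch electrode and aspirated, and the polyadenylated RNA of each was amplified and sequenced. The groups were 5 pyramidal neurons cultured with glia, 5 GABAergic neurons from purified cultures that received oligodendrocyte conditioned medium (OCM) from day 3 in vitro, 5 GABAergic neurons from purified cultures without it, and 6 GABAergic neurons cultured with glia. All cultures of the purified kind, with or without OCM, had received anti-mitotic agents (5 µM) from 24 h after dissection, removed after 36 h, which the cultures with glia had not, so the agent and the absence of glia cannot be told apart. The labels name no animal or culture, so each group counts as 1 sample: no test was made, and every SD or range is over the cells of a group and says nothing of variation between animals.

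Synapses are held together by proteins that reach across the cleft. Neurexins on the axon bind neuroligins and leucine-rich repeat transmembrane (LRRTM) proteins on the receiving side, while SLITRK proteins bind receptor-type tyrosine phosphatases on the axon. Beneath the receiving membrane, DLG scaffolds gather glutamate receptors and adhesion proteins with their PDZ domains, and gephyrin does the corresponding work at inhibitory synapses. Interneurons such as those studied here both give inhibitory synapses and receive excitatory and inhibitory ones, so a single cell can carry transcripts of both sides.

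The cells held between 1817671 and 25160911 reads, and between 2540 and 8652 gene rows had any. Gad1, which makes GABA, was above 0 in 5 of 5 OCM-treated, 4 of 5 purified and 6 of 6 glia-cultured GABAergic cells and in 0 of 5 pyramidal cells, and Slc17a7, the vesicular glutamate transporter, was above 0 in 4 of 5 pyramidal cells and at 0 in every GABAergic cell. Purified cell 4 had no Gad1 reads but 4 of the 8 GABAergic markers, with a sum of 21196. Pyramidal cell 3 had no Slc17a7 reads, an astrocyte marker sum of 67323, a microglia marker sum of 19786 and the lowest pan-neuronal marker sum of the 21 cells, 15901. Oligodendrocyte markers summed to 324915 in pyramidal cell 3 and 103570 in pyramidal cell 4, against at most 1604 in the other pyramidal cells. The differences of pyramidal from GABAergic cells are therefore also given without cells 3 and 4. Those sums, like all levels below, are the authors' normalized values, read counts divided by 1 factor per cell.

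**Figure D1:**
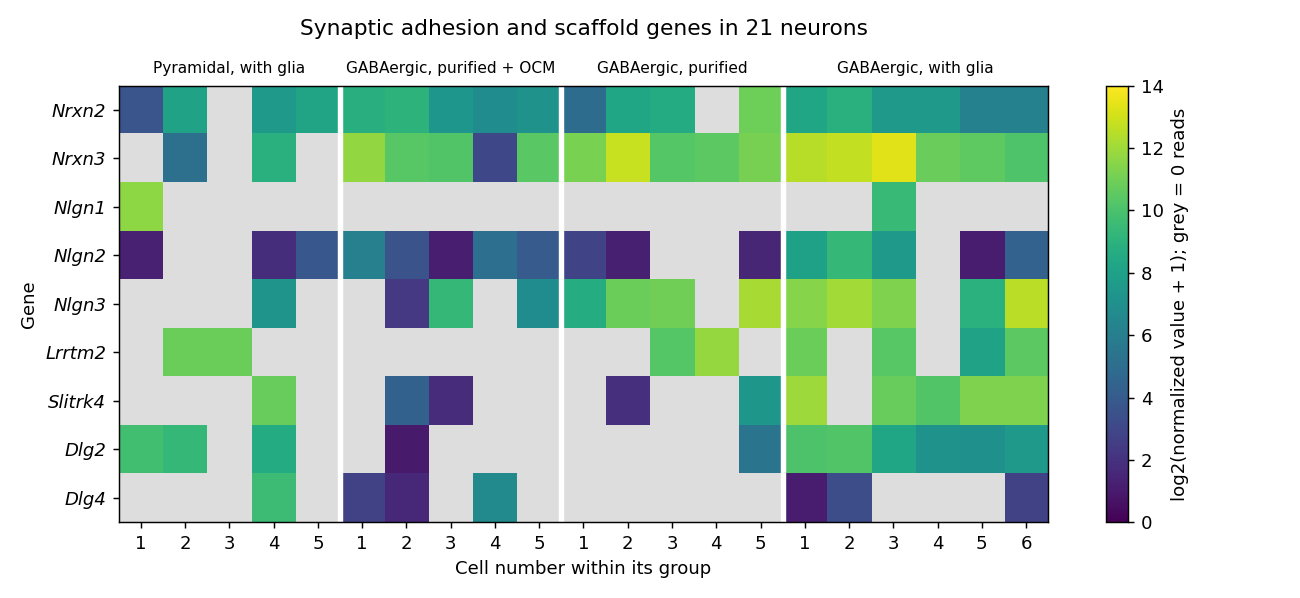
Level of each of the 9 genes (rows) in each of the 21 cells (columns, numbered within their group), as log2 of the normalized value plus 1, with grey for 0 reads. The GABAergic cells with glia hold the fewest grey fields, and Nlgn1 is grey in 19 of 21 cells.

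Of 189 pairs of gene and cell, 104 were above 0. That was 18 of 45 pairs in pyramidal cells (40.0%), 24 of 45 in OCM-treated cells (53.3%), 21 of 45 in purified cells (46.7%) and 41 of 54 in GABAergic cells with glia (75.9%). Without pyramidal cells 3 and 4 the pyramidal share was 37.0%, and the remaining 3 cells held a median of 4 of the 9 genes (2 to 4). Over all 16245 symbols the same shares were 18.6%, 25.5%, 17.9% and 30.1%, so the order of the groups with the highest and the second highest share was shared with the table as a whole. A cell held a median of 4 of the 9 genes in the pyramidal group (1 to 7), 4 in the OCM group (4 to 7), 4 in the purified group (2 to 6) and 7.5 in the glia-cultured GABAergic group (4 to 8). After every cell was thinned to 1817671 reads, the shares of pairs were 37.8%, 42.2%, 44.4% and 72.2%. OCM-treated cells then had 19 and purified cells 20 of 45 pairs, too close to give an order. The share over all symbols was not computed after thinning. The median number of gene rows above 0 was then 2721, 4216, 3403 and 5157.5 in the same order of groups. Detection here means at least 1 read, and whether a gene at 0 was silent or lost during capture was not tested.

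**Figure D2:**
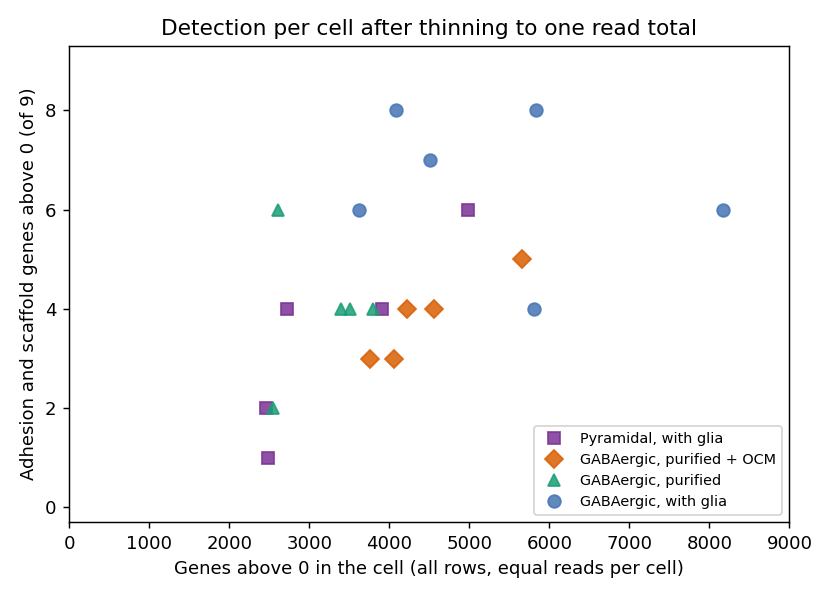
Number of the 9 genes above 0 (vertical axis) against the number of all genes above 0 (horizontal axis) in each of the 21 cells after thinning to equal reads. Of the 6 GABAergic cells with glia, 5 hold 6 to 8 of the genes and 1 holds 4; OCM-treated cells hold 3 to 5.

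Across the 21 cells, the number of the 9 genes above 0 went with the number of all genes above 0 (Pearson r = 0.60, Spearman rho = 0.62), and after thinning r was 0.51 (rho = 0.59). These coefficients describe cells that differ in group, and within the 6 glia-cultured GABAergic cells r was -0.08 before thinning. It was not computed within the other groups. Pyramidal cell 4 and OCM-treated cell 2 had the most genes of their groups (5325 and 6331) and the most of the 9 (7 each). Purified cell 2 had the most genes of its group (4065) with 5 of the 9, and purified cell 5 held 6 with 2715. The OCM-treated cells, with 3759 to 5656 genes after thinning, overlapped the glia-cultured GABAergic cells, with 3625 to 8173, while holding 3 to 5 of the 9 genes against 4 to 8. Purified cells had 2547 to 3802 genes and 2 to 6 of the 9.

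The presynaptic side is represented by 2 neurexins. Nrxn3 (chromosome 6, 112133204 to 114067542 in rn6) followed the GABAergic label. It was at 0, 35.4, 0, 467 and 0 in pyramidal cells 1 to 5. In OCM-treated cells 1 to 5 it was at 3355, 1318, 1196, 7.22 and 1377, and in purified cells 1 to 5 at 2316, 7371, 1286, 1422 and 2238. In GABAergic cells with glia the lowest value was 1112, the median 3731 and the highest 10647. Every GABAergic cell had reads, and every pyramidal cell lay below every GABAergic cell with glia; OCM-treated cell 4 alone among the GABAergic cells lay within the pyramidal range.

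Group means of Nrxn3 were 101 (SD 206, 5 cells) in pyramidal cells, 1451 (SD 1204, 5 cells) in OCM-treated cells, 2927 (SD 2528, 5 cells) in purified cells and 4590 (SD 3818, 6 cells) in GABAergic cells with glia. Neighbouring GABAergic groups in this order differed by less than the spread between cells. The gap of OCM-treated to pyramidal cells, 1350, exceeded that spread, 864, though their ranges overlapped. The difference of the mean log2 values, with 1 added to each value, was -8.86 for pyramidal minus GABAergic cells with glia, where the median of all 6571 measured genes was -2.05. Of those genes, 69 lay lower still, and 1.84% had every pyramidal cell below every GABAergic cell. Without pyramidal cells 3 and 4 the Nrxn3 difference was -9.94, and as the ratio of group means it was -5.50. The Nrxn3 difference for OCM-treated minus purified cells was -2.04, and -0.51 without OCM-treated cell 4.

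Nrxn2 (chromosome 1, 221801520 to 221908045) was the most widely detected gene of the set, above 0 in 19 of 21 cells. It was at 11.8, 265, 0, 181 and 286 in pyramidal cells 1 to 5 and at 449, 519, 165, 113 and 143 in OCM-treated cells 1 to 5. Purified cells 1 to 5 had 29.7, 313, 395, 0 and 1931. GABAergic cells with glia ran from 69.4 to 464 with a median of 191. All groups overlapped, and no 2 neighbouring group means differed by more than the spread between cells. The Nrxn2 difference for pyramidal minus GABAergic cells with glia was -1.95, and -0.80 without pyramidal cells 3 and 4.

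On the receiving side, the neuroligins differed among themselves in which cells held them. Nlgn1 (chromosome 2, 111058022 to 111793326), known as the neuroligin of excitatory synapses, was at 3118 in pyramidal cell 1 and at 685 in glia-cultured GABAergic cell 3. The remaining 19 cells had none. With 0 of 5 OCM-treated and 0 of 5 purified cells, a share of up to 60.0% of cells with reads is allowed in each group. That limit is 3 over the number of cells, and the upper end of the exact 95% interval is 52.2%. Both, here and below, treat the cells as independent draws and say nothing of other animals or cultures. Nlgn1 was therefore measured in no comparison, since at least 3 cells above 0 were asked for.

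Nlgn2 (chromosome 10, 56431588 to 56444847), the neuroligin of inhibitory synapses, had reads in 16 of 21 cells but at most 3 reads in 5 of them. It was at 1.48, 0, 0, 2.49 and 13.2 in pyramidal cells 1 to 5 and at 66.2, 11.2, 1.22, 33.5 and 15.5 in OCM-treated cells 1 to 5. Purified cells 1 to 5 had 6.18, 1.36, 0, 0 and 1.87. In GABAergic cells with glia it ranged from 0 to 631 with a median of 100. OCM-treated cells had reads in 5 of 5 cells and purified cells in 3 of 5, and the groups overlapped only through OCM-treated cell 3. The mean was 25.5 (SD 25.6) in OCM-treated and 1.88 (SD 2.54) in purified cells, and the log2 difference of 2.88 was 2.36 to 3.59 with 1 cell left out. It was 1.11 after thinning to equal reads and 1.31 with a pseudocount of 10, and thinning left reads in 3 of 5 OCM-treated and 2 of 5 purified cells. In that comparison 1536 of 5143 measured genes were higher still.

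Nlgn3 (chromosome X, 71199516 to 71221951), found at both kinds of synapse, was above 0 in 1 of 5 pyramidal cells, at 152 in cell 4. OCM-treated cells 1 to 5 had 0, 4.07, 641, 0 and 112. Purified cells 1 to 5 had 404, 1824, 2018, 0 and 4515, and GABAergic cells with glia had a lowest value of 0, a median of 2658 and a highest of 6113. The purified and glia-cultured GABAergic cells thus covered much the same range, with 1 cell at 0 in each, whereas 4 of 5 OCM-treated cells lay below every purified cell that had reads. Means were 151 (SD 278) in OCM-treated, 1752 (SD 1775) in purified and 2687 (SD 2286) in glia-cultured GABAergic cells.

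The log2 difference of Nlgn3 was -4.83 for OCM-treated minus purified cells, -6.96 to -3.90 without any 1 cell. The median of the 5143 measured genes was 1.40 in that comparison, and 62 of them lay lower than Nlgn3. For OCM-treated minus glia-cultured GABAergic cells it was -5.69, with 169 of 6772 genes lower still, and for purified minus glia-cultured cells it was -0.86, with either sign (-2.74 to 1.27) when 1 cell was left out. For pyramidal minus GABAergic cells with glia it was -7.93, and -9.38 without pyramidal cells 3 and 4. The OCM comparisons share the OCM-treated cells, so they are not independent of each other.

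**Figure D3:**
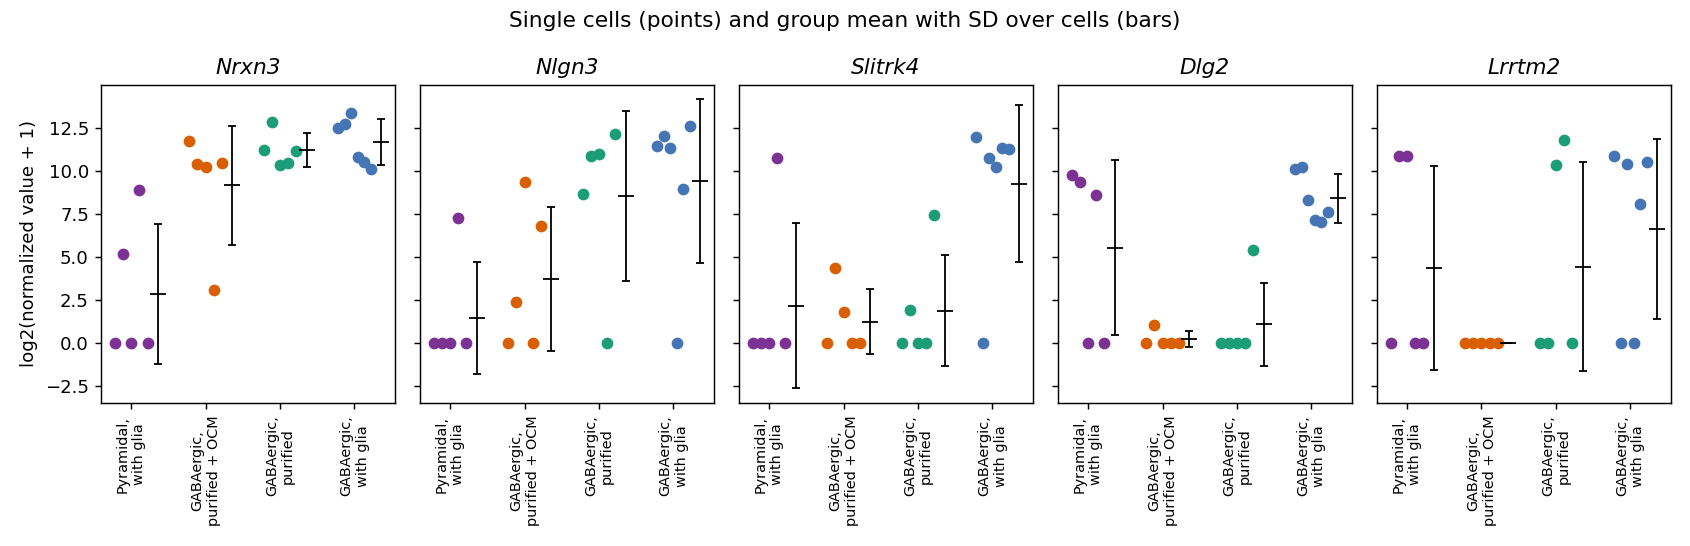
Log2 of the normalized value plus 1 for Nrxn3, Nlgn3, Slitrk4, Dlg2 and Lrrtm2 in each cell (points), with the group mean and SD over cells (bars; 5, 5, 5 and 6 cells from left to right). Dlg2 is above 0 in all 6 GABAergic cells with glia and at or near 0 in most purified and OCM-treated cells.

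Slitrk4 (chromosome X, 147582195 to 147589529), an adhesion protein of the SLITRK family, was high in the GABAergic cells with glia and low or at 0 in the other GABAergic cells. Pyramidal cell 4 had 1702, whereas pyramidal cells 1, 2, 3 and 5 had none. OCM-treated cells 1 to 5 had 0, 19.3, 2.44, 0 and 0, and purified cells 1 to 5 had 0, 2.71, 0, 0 and 172. Among GABAergic cells with glia, cell 2 was at 0 and the other 5 ran from 1196 to 3924. The OCM-treated and purified cells overlapped the glia-cultured GABAergic cells only through that cell at 0, and pyramidal cell 4 lay within the range of the glia-cultured cells. Means were 4.36 (SD 8.44) in OCM-treated, 34.9 (SD 76.5) in purified and 1974 (SD 1339) in glia-cultured GABAergic cells.

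The Slitrk4 difference was -8.02 for OCM-treated minus glia-cultured GABAergic cells, and 7 of 6772 measured genes lay lower. For purified minus glia-cultured cells it was -7.38, and 167 of 6302 lay lower. For pyramidal minus GABAergic cells with glia it was -7.10, and -9.25 without pyramidal cells 3 and 4, since cell 4 was the pyramidal cell with reads. Of the related genes, Slitrk1 was above 0 in 4 of 5 pyramidal, 5 of 5 OCM-treated, 4 of 5 purified and 6 of 6 glia-cultured GABAergic cells, and Slitrk5 in 1 of 5, 4 of 5, 1 of 5 and 2 of 6. In the same order, Slitrk3 was above 0 in 1 of 5, 5 of 5, 2 of 5 and 3 of 6 cells. Slitrk2 was above 0 in 0 of 5, 2 of 5, 0 of 5 and 1 of 6. Slitrk5 had the most positive difference of the other postsynaptic adhesion genes for OCM-treated minus glia-cultured cells, 6.0, with means of 1167 (SD 946) and 84.6 (SD 195), opposite in sign to Slitrk4. In those groups the Slitrk3 means were 609 (SD 395) and 94.3 (SD 159), and the Slitrk1 means 860 (SD 963) and 1992 (SD 667). Slitrk1, Slitrk2 and Slitrk3 were picked here after their values were seen.

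Lrrtm2 (chromosome 18, 28012877 to 28017925), a neurexin ligand of excitatory synapses, was at 0 in all 5 OCM-treated cells. Pyramidal cells 1 to 5 had 0, 1852, 1848, 0 and 0. Purified cells 1 to 5 had 0, 0, 1286, 3476 and 0, and GABAergic cells with glia had a lowest value of 0, a median of 801 and a highest of 1868, with 4 of 6 cells above 0. A cell with Lrrtm2 reads had at least 263, so its presence or absence sets the group means. Against a floor of 3 reads over the 5 OCM-treated cells, its mean of 819 (SD 826) in glia-cultured GABAergic cells was at least 1746-fold higher. With 1 glia-cultured cell left out this was 1299-fold to 2096-fold. These folds hold for the cells sequenced and set no bound on other OCM-treated cells. The mean was 952 (SD 1517) in purified cells, with 3 of the 5 cells at 0; too few cells had reads for a comparison with OCM-treated cells. For pyramidal minus GABAergic cells with glia the Lrrtm2 difference was -2.29, and -3.01 without pyramidal cells 3 and 4. The 0 of 5 cells allow a share of up to 60.0% with reads, or 52.2% by the exact 95% interval.

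The Lrrtm2 row lies inside that of Ctnna1, the alpha-catenin gene (chromosome 18, 27923572 to 28055964). Ctnna1 was above 0 in 3 cells, all of them among the 8 with Lrrtm2 reads. No source names a strand setting for the counting, so reads of the 2 genes may not be told apart in those 3 cells. Dlg2, described next, overlaps the rows of Tmem126a, Tmem126b and Crebzf, with reads of Tmem126b in 7 of the 11 cells with Dlg2 reads.

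The scaffold gene Dlg2 (chromosome 1, 155147796 to 157269747) encodes PSD-93, a membrane-associated guanylate kinase of excitatory postsynapses. It was at 862, 643, 0, 386 and 0 in pyramidal cells 1 to 5. OCM-treated cells had 1.02 in cell 2, which is 2 reads, and 0 in the other 4. Purified cells had 41.0 in cell 5 and 0 in the other 4. In GABAergic cells with glia the lowest value was 127, the median 254 and the highest 1177. Every OCM-treated and every purified cell thus lay below every GABAergic cell with glia. The gap between the lowest glia-cultured and the highest OCM-treated cell was 126, and that to the highest purified cell 86.4. Leaving out 1 cell can only keep or widen such a gap, here to at most 140 and 127. Those values are therefore no check of the separation.

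Mean Dlg2 levels were 378 (SD 384) in pyramidal (502 without cells 3 and 4), 0.203 (SD 0.455) in OCM-treated, 8.21 (SD 18.4) in purified and 507 (SD 490) in glia-cultured GABAergic cells. The Dlg2 difference was -8.19 for OCM-treated minus glia-cultured GABAergic cells and 2 of 6772 measured genes lay lower. Its size follows the pseudocount, since OCM-treated cells are at or near 0: it was -5.09 with a pseudocount of 10, -11.01 with 0.1 and -5.40 after scaling to 1 total per cell. Of those genes, 0.517% had every OCM-treated cell below every glia-cultured cell, and 0.251% had reads in all 6 glia-cultured cells and in at most 1 OCM-treated cell. For purified minus glia-cultured cells the difference was -7.31 (-4.65 with a pseudocount of 10, -9.97 with 0.1 and -4.90 after scaling to 1 total), where 1.51% of 6302 genes did not overlap in that direction and 2.35% had reads in all glia-cultured cells and at most 1 purified cell. The comparisons share the glia-cultured cells. In both, Dlg2 was the only gene of the set whose groups did not overlap.

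Depth and title letters moved with this pattern. Reads per cell were 5730139 to 12967563 in OCM-treated, 2442814 to 7821375 in purified and 5587208 to 25160911 in glia-cultured GABAergic cells. Dlg2 had 2 reads or none in the OCM-treated cells, against 135 to 3595 reads in the glia-cultured cells, and after thinning it was again above 0 in all 6 glia-cultured cells. Titles of the cells open with letters of unstated meaning: all 5 OCM-treated and 4 of 5 purified cells are titled S, but 1 of 6 glia-cultured GABAergic cells is, the others being 3 titled P and 2 titled ech. Against that 1 cell titled S, the Dlg2 difference was -7.38 for OCM-treated and -7.59 for purified cells titled S, and among cells titled P, 1 purified against 3 glia-cultured, it was -2.10. Slitrk4 gave -10.05, -10.81 and -3.32 in the same 3 contrasts.

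Glial RNA also differed between these groups. The 9 astrocyte markers in the table summed to 0 to 1226 in OCM-treated, 0 to 1538 in purified and 169 to 3346 in glia-cultured GABAergic cells, with Slc1a2 at 0 in all 3 groups and Gfap also at 0 in the OCM-treated and purified groups. The 11 oligodendrocyte markers summed to at most 9.16, 857 and 1352 in the same groups, and at 0 in every glia-cultured GABAergic cell were Mog, Mag, Mobp, Sox10, Pdgfra and Cspg4. In glia-cultured cells 1 to 6 the astrocyte sums were 1079, 1277, 3346, 1440, 1696 and 169. The oligodendrocyte sums were 487, 0, 1352, 0, 998 and 0. In the same cells Dlg2 was at 1089, 1177.5, 316, 141, 127 and 191, and Slitrk4 at 3924, 0, 1697, 1196, 2541 and 2483. The part of glial RNA in these levels was not tested.

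Dlg4 (chromosome 10, 56627405 to 56653599) encodes PSD-95, the main scaffold of excitatory postsynapses, and was above 0 in 7 of 21 cells. Pyramidal cell 4, a cell with oligodendrocyte transcripts, had 770, and pyramidal cells 1, 2, 3 and 5 had none. OCM-treated cells 1 to 5 had 5.81, 2.03, 0, 101 and 0, purified cells were all at 0, and glia-cultured GABAergic cells ran from 0 to 8.98, with 3 of 6 above 0. The 0 of 5 purified cells allow a share of up to 60.0% with reads, or 52.2% by the exact 95% interval. Against the floor of 3 reads over the purified cells, Dlg4 was at least 22.7-fold higher in OCM-treated cells, but at least 2.05-fold without cell 4. For purified against glia-cultured cells it was at least 2.76-fold lower, or 1.44-fold without glia-cultured cell 2, which held 18 of the 26 reads. For pyramidal minus GABAergic cells with glia the Dlg4 difference was 0.72, and -1.20 without pyramidal cells 3 and 4.

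The other DLG scaffold genes showed how members of 1 family were detected in different cells. Dlg3, which encodes SAP102, was above 0 in 1 of 5 pyramidal, 5 of 5 OCM-treated, 0 of 5 purified and 6 of 6 glia-cultured GABAergic cells. Its means were 562 (SD 664) in OCM-treated, 0 in purified and 604 (SD 595) in glia-cultured cells. Thus Dlg3 and Dlg2 had reads in every GABAergic cell with glia and in at most 1 purified cell, but only Dlg3 had reads in every OCM-treated cell. Gphn, the gephyrin scaffold of inhibitory synapses, was above 0 in the same numbers of GABAergic cells as Dlg3: 5 of 5, 0 of 5 and 6 of 6. Dlg1 was above 0 in 1 purified and 1 glia-cultured GABAergic cell.

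**Figure D4:**
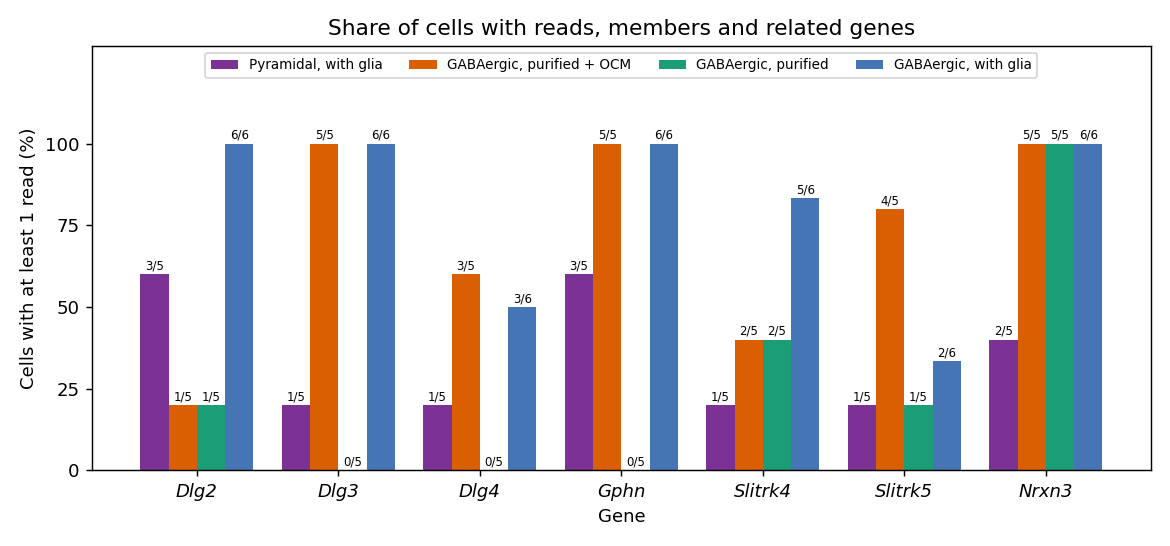
Share of cells with at least 1 read in each group for 4 genes of the set and related genes, with the number of cells above each bar. Dlg3 and Gphn have reads in 5 of 5 OCM-treated and 0 of 5 purified cells, and Dlg2 in 1 of 5 of each.

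Promoter windows are shown for Dlg2 and Slitrk4, whose levels were lower in both purified groups than with glia, and for Lrrtm2, which had no reads with OCM. Each is the 300-base window around the start of the RefSeq gene in build GRCr8, which differs from the rn6 build of the expression table, 5′ to 3′ on the gene's strand, and capitals mark matches to 4 motifs searched on both strands. These were the GC box with the letters GGGCGG, the box of general promoter factors spelled CCAAT, the TATA box searched as the letters TATAAA, and the full cAMP response element spelled TGACGTCA. No match here overlaps another.
Dlg2, chr1:154539421-154539720, plus strand: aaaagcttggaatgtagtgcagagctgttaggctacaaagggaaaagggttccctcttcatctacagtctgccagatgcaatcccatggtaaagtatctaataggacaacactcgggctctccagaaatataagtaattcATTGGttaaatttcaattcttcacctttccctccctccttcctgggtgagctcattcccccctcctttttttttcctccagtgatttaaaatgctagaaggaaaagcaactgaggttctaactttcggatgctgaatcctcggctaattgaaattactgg
Slitrk4, chrX:147753749-147754048, minus strand: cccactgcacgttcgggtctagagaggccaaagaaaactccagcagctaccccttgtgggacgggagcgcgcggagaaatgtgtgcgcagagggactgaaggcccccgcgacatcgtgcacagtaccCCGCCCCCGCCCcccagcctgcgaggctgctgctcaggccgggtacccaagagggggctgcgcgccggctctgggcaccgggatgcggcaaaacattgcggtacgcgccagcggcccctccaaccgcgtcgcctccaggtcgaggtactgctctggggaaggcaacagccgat
Lrrtm2, chr18:27096918-27097217, minus strand: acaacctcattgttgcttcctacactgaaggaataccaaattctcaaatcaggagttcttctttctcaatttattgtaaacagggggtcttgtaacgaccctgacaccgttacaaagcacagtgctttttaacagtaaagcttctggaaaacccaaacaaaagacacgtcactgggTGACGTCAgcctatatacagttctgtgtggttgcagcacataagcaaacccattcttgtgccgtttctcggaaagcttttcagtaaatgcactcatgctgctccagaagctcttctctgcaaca
The windows of Dlg2 and Slitrk4 did not resemble each other in composition. That of Dlg2 had 42.3% G and C, 3 CpG and 1 CCAAT match, and that of Slitrk4 68.0%, 28 CpG and 2 adjoining GC box matches on the opposite strand. Lrrtm2 had 43.0%, 6 CpG and 1 full cAMP response element. Over 33469 promoters of the same length, the median was 51.7% G and C and 7 CpG, 33.1% held a GC box match, 37.5% a CCAAT match, 14.2% TATAAA and 1.83% the full cAMP response element. Windows were found for 7 of the 9 genes, all but Nrxn2 and Nrxn3. A match describes the letters of the window and shows no site in use.

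Read as a set, the 9 genes were set beside all measured genes in each comparison, with a gene measured when at least 3 cells of both groups together were above 0. For pyramidal minus GABAergic cells with glia, 8 of the 9 were measured and 7 were lower by at least 1 on the log2 scale, against 64.2% of all 6571 genes; 0 were higher by as much, against 13.3%. The median difference of the 8 was -3.26, beside -2.05 for all genes. Without pyramidal cells 3 and 4 the median was -3.17 and 7 were lower by at least 1, but other genes made up the count: Nrxn2 was at -0.80 and no longer counted, and Dlg4 turned to -1.20. The share and median over all genes were not recomputed without those cells, so this count has no background beside it. Nrxn3, Nlgn3 and Slitrk4 were the lowest.

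For purified minus glia-cultured GABAergic cells, 5 of 8 measured genes were lower by at least 1 (64.4% of 6302 genes) and 0 were higher (11%). The median was -1.71 beside -2.13 for all genes, or -1.84 with Dlg4, at 0 in purified cells, set to its bound. This is near the background. The differences were spread widely, with Slitrk4 and Dlg2 near -7 and Nrxn3 at -0.48.

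For OCM-treated minus purified cells, 6 of the 9 were measured. Of these 3 were higher by at least 1, against 56.0% of 5143 genes, and 2 were lower by at least 1, against 16.4%. The median was 0.32 beside 1.40 for all genes, and it ranged from -0.73 to 1.48 with any 1 cell left out, so it had no direction of its own. Nlgn2 (2.88), Dlg4 (2.21) and Nrxn2 (1.29) were the higher ones, and Nlgn3 (-4.83) and Nrxn3 (-2.04) the lower ones. Nrxn2 was at -0.35 without purified cell 4, which was the purified cell with no Nrxn2 and no Gad1 reads.

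For OCM-treated minus glia-cultured GABAergic cells, 6 of 8 measured genes were lower by at least 1 (44.4% of 6772 genes) and 1, Dlg4, was higher (20.3%). The median was -4.10 beside -0.72 for all genes, and -5.13 to -3.04 with any 1 cell left out. The lower ones were Dlg2, Slitrk4, Lrrtm2, Nlgn3, Nrxn3 and Nlgn2. Dlg4 was at -0.11 without OCM-treated cell 4. The genes of the set were proposed with results of these cells known, so these medians are a description of the set and no test of it.

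In pyramidal cells, 8 of 8 measured genes were above 0 in a smaller share of cells than in GABAergic cells with glia (79.2% of all genes) and 0 in a larger share (15.4%). In purified cells 7 of 8 were in a smaller share than with glia (77.9%) and 0 in a larger share (13.5%). OCM-treated cells held 1 of 6 genes in a smaller share than purified cells, Nlgn3 (14.4%), and 3 of 6 in a larger share, Nrxn2, Nlgn2 and Dlg4 (61.3%). Against GABAergic cells with glia, OCM-treated cells held Nlgn3, Dlg2, Lrrtm2 and Slitrk4, 4 of 8, in a smaller share (55.7%) and Nlgn2 and Dlg4, 2 of 8, in a larger share (30.4%).

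Groups that did not overlap were rare in the table. For pyramidal cells against GABAergic cells with glia, 0 of 8 genes of the set had every cell above (0.243% of all genes) and 0 had reads in every glia-cultured GABAergic cell and at most 1 pyramidal cell (2.74%). For OCM-treated against purified cells, 0 of 6 lay wholly below (0.233%), wholly above (0.817%) or had reads in every purified and at most 1 OCM-treated cell (0.0583%). No gene of the set lay wholly above the glia-cultured GABAergic cells in purified (0.159%) or OCM-treated cells (0.177%).

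**Figure D5:**
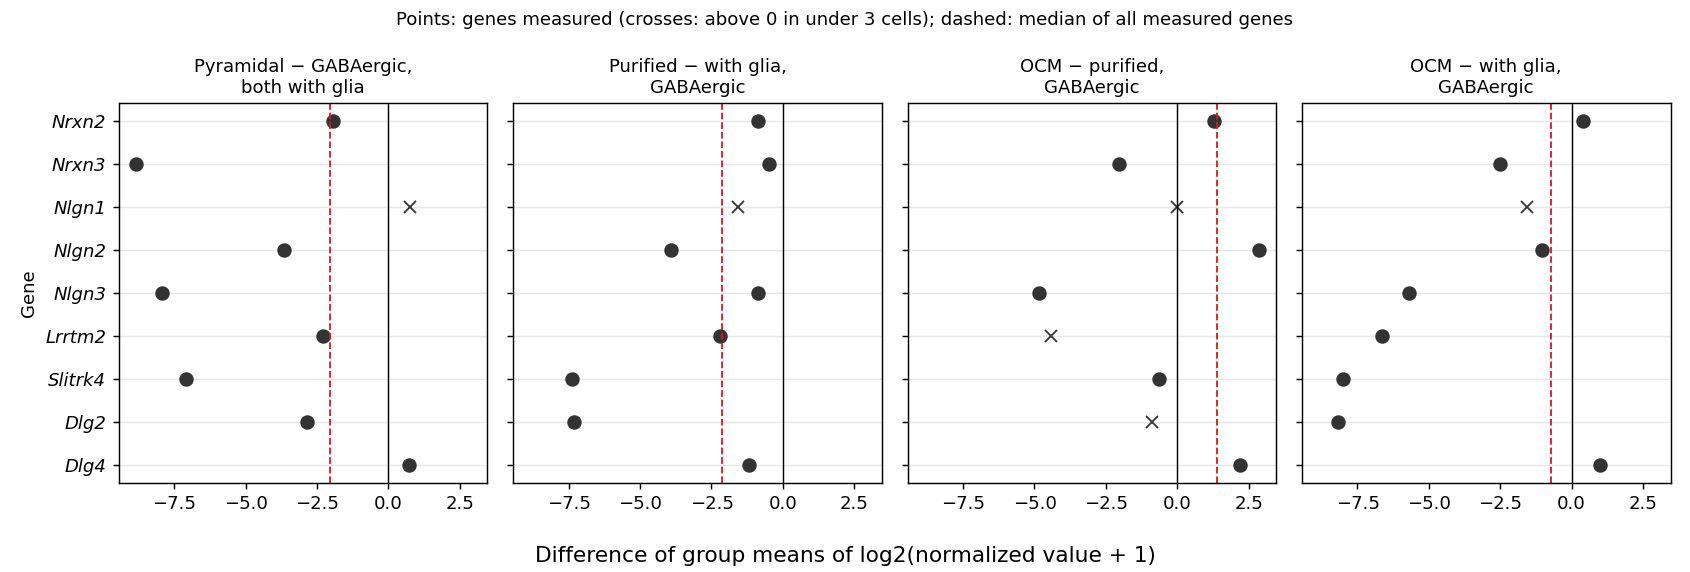
Difference of group means of log2(normalized value + 1) for the 9 genes in the 4 comparisons; crosses mark genes above 0 in under 3 cells and the dashed line the median of all measured genes. For OCM-treated minus glia-cultured cells, Dlg2 and Slitrk4 lie near -8 while the median of all genes is -0.72.

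Other genes of synaptic adhesion and scaffolding came from a list of 103 genes, of which 93 were in the table. For pyramidal minus GABAergic cells with glia, 70 were measured, 11 higher by at least 1 (15.7%, against 13.3% of all genes) and 48 lower by at least 1 (68.6%, against 64.2%), with a median of -2.11 beside -2.05 for all genes. The most negative presynaptic adhesion gene was Cntnap4, an interneuron adhesion protein, at 0 in 5 of 5 pyramidal cells and above 0 in 6 of 6 GABAergic cells with glia (mean 3634, SD 1791). Nxph1, a neurexin ligand, was at 0 in every pyramidal cell and above 0 in 5 of 6 glia-cultured GABAergic cells, and Nptx1, a pentraxin that clusters glutamate receptors, was above 0 in 5 of 5 against 3 of 6 (difference 4.45).

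For purified minus glia-cultured GABAergic cells, 71 were measured, 8 higher (11.3%, against 11% of all genes) and 48 lower by at least 1 (67.6%, against 64.4%), with a median of -2.82 beside -2.13 for all genes. Among 4 measured inhibitory scaffold genes, 4 were lower by at least 1, as were 64.4% of all genes; Gphn was the lowest of them, with 0 of 5 purified and 6 of 6 glia-cultured cells above 0. Lrrtm3, of the same family as Lrrtm2, was above 0 in 0 of 5 and 5 of 6 cells, while Igsf21, an adhesion protein, was above 0 in 3 of 5 and 0 of 6. For OCM-treated minus purified cells, 57 were measured, 36 higher (63.2%, against 56.0% of all genes) and 12 lower by at least 1 (21.1%, against 16.4%), with a median of 1.74 beside 1.40. Dlg3, Gphn and the active-zone scaffold Bsn, above 0 in 5 of 5 OCM-treated and 1 of 5 purified cells, were the most positive of their lists, at 7.93, 7.48 and 6.4.

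For OCM-treated minus glia-cultured GABAergic cells, 72 were measured, 16 higher (22.2%, against 20.3% of all genes) and 42 lower by at least 1 (58.3%, against 44.4%), with a median of -1.45 beside -0.72 for all genes. The lists differed in their medians. It was 0.16 for secreted or cis-acting regulators, -0.87 for presynaptic scaffolds, -1.16 for excitatory scaffolds and -1.71 for inhibitory scaffolds. It was -3.89 for 8 presynaptic adhesion genes, -3.0 for 10 homophilic ones and 0.60 for 17 other postsynaptic adhesion genes. Of the postsynaptic adhesion members, Slitrk4 (-8.02), Lrrtm2 (-6.63) and Nlgn3 (-5.69) lay far below the median of that list, and Nlgn2 (-1.05) less far below. The presynaptic members Nrxn2 (0.41) and Nrxn3 (-2.52) lay above the median of the presynaptic list. Lists also differed for purified minus glia-cultured cells, with medians of -3.81 (presynaptic adhesion), -4.07 (homophilic) and -0.86 (other postsynaptic adhesion).

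Pairs of genes in the set differed in how many cells they shared. Dlg2 and Slitrk4 were both above 0 in 8 cells, of 11 with Dlg2 and 10 with Slitrk4 reads, and their log2 values had a Pearson r of 0.59 over the 21 cells. Nrxn3 and Nlgn3 were both above 0 in 13 cells, which are all the cells with Nlgn3, with an r of 0.66. Nrxn3 had reads in 18 of the 21 cells, and Nrxn2 also had reads in all 13 cells with Nlgn3 (r = 0.41). The pairs Dlg2 with Slitrk4 and Nrxn3 with Nlgn3 were picked as those with the highest r in the set. These values pool 4 groups of unequal depth and are given without a test.

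For the 3 members above 0 in at least 15 cells, the genes of most similar level over the 21 cells were sought among 1615 genes with at least as many cells. Nrxn3 went with Cnih1 (r = 0.88), RGD1566239 (0.88) and Spock3 (0.87), and Nrxn2 with Araf (0.84), Lrpap1 (0.84) and Ndufv2 (0.84). For Nlgn2 the highest values were 0.61 for Mfsd12, 0.61 for Tpi1 and 0.58 for Oxr1. All cells of a group share a culture condition, and cells at 0 weigh heavily in these coefficients.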

How the data were processed

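Per the labels' protocols, cDNA of each aspirated neuron came from SMART-Seq v4 and its paired-end library from Nextera XT. The submitters' processing notes list rn6 as build and, as tools, DESeq2, STAR 2.4.0, SAMtools, Picard and FastQC. For counter, annotation and strand, settings were not given in the sources used here. Its name calls the table the authors deposited DESeq2-normalized, and it holds 1 signal value per gene row and cell. The table has 34976 rows, 18376 without a symbol, and 0 value columns lacked a sample; for 16245 symbols the row with the highest mean was kept. All values were whole multiples of 1 step per cell (100% within 0.05 of a whole number), which gave back whole reads. A count test on them was not run, since each group is 1 sample. Differences are of group means of log2(value + 1), over genes above 0 in at least 3 cells. A fold against a group at 0 uses 3 reads over that group, so it holds for the cells sequenced and does not bound others. Intervals and limits of shares treat the cells of a group as independent draws and do not cover variation between animals or cultures. The floor of 3 reads covers the counting of reads only. No molecular identifiers are mentioned, and loss during capture was not tested. The fold used was 1 on the log2 scale.

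Named besides the set were, per comparison and list, the genes with the most positive and most negative difference among those with a mean of at least 50, and the 3 genes most like each member above 0 in at least 15 cells. Slitrk1, Slitrk2, Slitrk3, Dlg1 and the promoter motifs were chosen after values were seen. One result is not reported here. Members and lists were chosen with earlier results of these data known. Promoters and names came from RefSeq (GRCr8), which holds 9 of the 9 symbols. Scripts were tested on simulated data of genes with a mean above 50. No losses to 0 were added there, so differences set by presence or absence were not tested. Alternatives were pseudocounts of 10 and 0.1, other scalings, thinning, the ratio of means, the median over cells, no filter, a fold of 2, leaving out each cell, and cells of 1 title letter; chosen only once the data had been seen were leaving out GABAergic cells with glia titled P, asking for more than 3 reads, pyramidal detection without cells 3 and 4, and the Dlg2 gap and fold bounds without each cell. Software was matplotlib 3.10.9, scipy 1.17.1, pandas 2.3.3, numpy 2.4.6, under Python 3.11.15.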

Additional observations from a re-analysis of the deposited data

Results flagged for a closer look

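In 12 of 32 combinations of gene and group with unequal values, 1 cell stood apart from the others by Dixon's criterion on log2 values; chance gives about 1 in 20, but most of these groups hold many cells at 0, for which the criterion is not made. One cell above 0 among cells at 0 accounted for Nlgn1 in pyramidal cell 1 (3118) and glia-cultured GABAergic cell 3 (685), for Nlgn3 (152), Dlg4 (770) and Slitrk4 (1702) in pyramidal cell 4, and for Dlg2 in OCM-treated cell 2 (1.02) and purified cell 5 (41.0). Slitrk4 in purified cell 5 (172) stood above 1 low cell and 3 at 0. Pyramidal cell 4 also had an oligodendrocyte marker sum of 103570 and 22669537 reads, the most of its group; their part in these values was not tested. On the low side stood Nrxn3 in OCM-treated cell 4 (7.22), Nlgn3 in purified cell 4 (0) and glia-cultured GABAergic cell 4 (0), and Slitrk4 in glia-cultured GABAergic cell 2 (0).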

How the results depend on the processing

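No paired analysis was possible because the labels give no animal, culture or shared replicate number, and no test was made. Of the recomputed medians, counts and detection shares, 262 stayed within the spread between cells or 1.5 times the count, and 31 did not; of 612 recomputed differences of single genes, 25 had the other sign, 9 of them for genes at 1 or more and 16 for genes within 1, such as Nrxn2 (-0.88) and Nlgn3 (-0.86) for purified minus glia-cultured cells, at 0.76 and 1.27 without purified cell 4, and Dlg4 for pyramidal minus glia-cultured cells. With pyramidal minus GABAergic cells with glia, the median over cells gave -6.93, the ratio of means gave 4 genes lower and 1 higher, and scaling to 1 total, cells titled S and cells titled P each gave 1 higher. Dlg2 was positive there with the median over cells (0.65) and among cells titled S (1.96). With purified minus glia-cultured cells, scaling to the upper quartile gave 8 lower, the ratio of means and cells titled S gave 1 higher, cells titled P gave 2, and Lrrtm2 was at 0.22 with the ratio of means. With OCM-treated minus purified cells, a pseudocount of 10 gave 1 higher, the median over cells gave 1 lower, and Nrxn2 was at -0.94 with the ratio of means, -0.92 with the median over cells and -0.35 without purified cell 4. With OCM-treated minus glia-cultured cells, 0 genes were higher with a pseudocount of 10, scaling to 1 total, thinning, a fold of 2, or without glia-cultured cells titled P; Dlg4 was at -0.19 without those, -0.53 among cells titled S and -0.11 without OCM-treated cell 4. The cause was not tested in any of these. Shares and medians over all genes were not recomputed in the alternatives or with 1 cell left out. These counts and medians therefore cannot be set against the table as a whole.

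With any 1 cell left out, the medians were -4.14 to -2.79 for pyramidal minus glia-cultured GABAergic cells (6 to 8 genes lower, 0 to 1 higher), -3.14 to -1.16 for purified minus glia-cultured cells (4 to 7 lower, 0 to 1 higher), -0.73 to 1.48 for OCM-treated minus purified cells (1 to 3 lower, 2 to 3 higher; Nrxn2 -0.35 to 2.38) and -5.13 to -3.04 for OCM-treated minus glia-cultured cells (5 to 6 lower, 0 to 1 higher; Dlg4 -0.11 to 1.56). Detection shares were then 30.6% to 47.2% in pyramidal, 47.2% to 55.6% in OCM-treated, 41.7% to 52.8% in purified and 73.3% to 82.2% in glia-cultured GABAergic cells. A 0 limits the reads expected from that cell's library to about 3, worth 0.909 to 17.7 normalized units over the cells at 0. It sets no limit on the level in the cell itself, since loss during capture was not tested.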
